A study of Homo sapiens with 4 samples.

Results

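The lipoprotein lipase axis was examined as 7 genes: LPL, LIPG, LMF1, GPIHBP1, ANGPTL4, VLDLR and CD36, out of 56832 genes measured by RNA sequencing in A375 cells, a long-established line grown from a human melanoma. The cells carried no engineered genotype (labelled WT), grew in serum-containing medium and received either 1 mM octanoate, a saturated medium-chain fatty acid, or isopropanol, the solvent used as vehicle, for 48 h. Each group had 2 libraries, numbered 1 and 2. The labels do not say whether these came from separate cultures, so the spread between them may be technical. The genes were chosen by symbol with their octanoate and vehicle values already known, and ANGPTL4 was among the largest differences of the experiment. Their differences between the groups are therefore given as a description, with a standard error (SE) and no p-value. Calls from the fit across all genes are counted once for the members, and nothing is read from them.

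Lipoprotein lipase, the product of LPL, releases fatty acids from the triglycerides of circulating lipoproteins. It is folded in the endoplasmic reticulum with the help of LMF1, carried to the inner face of capillaries by GPIHBP1, and inactivated by the secreted protein ANGPTL4. Cells take up the lipoprotein remnants through receptors such as VLDLR and the fatty acids in part through CD36. LPL, CD36, VLDLR and ANGPTL4 are textbook targets of the PPARs, nuclear receptors that bind fatty acids, and ANGPTL4 is also known to respond to hypoxia and to glucocorticoids.

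To show the sequence context of the members that were higher under octanoate, the region around their annotated transcription starts was read from a table of RefSeq windows (GRCh38.p14), in which 5 of the 7 genes were matched and LPL and GPIHBP1 were not. Each window runs 5′ to 3′ on the plus strand from 250 bases before a start to 50 bases after it. Capitals mark TATAAA and the hypoxia-type motifs ACGTG and GCGTG, each searched on both strands. The ANGPTL4 window lies at chr19:8363905-8364204, the VLDLR window at chr9:2621537-2621836, and the CD36 window, the first by position of 6 annotated starts, at chr7:80601957-80602256.
ANGPTL4: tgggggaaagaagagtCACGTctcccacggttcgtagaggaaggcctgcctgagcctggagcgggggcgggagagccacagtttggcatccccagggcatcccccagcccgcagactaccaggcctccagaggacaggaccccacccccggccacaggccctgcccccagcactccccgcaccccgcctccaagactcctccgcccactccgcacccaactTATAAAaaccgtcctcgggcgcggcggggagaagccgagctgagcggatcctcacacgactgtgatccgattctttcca
VLDLR: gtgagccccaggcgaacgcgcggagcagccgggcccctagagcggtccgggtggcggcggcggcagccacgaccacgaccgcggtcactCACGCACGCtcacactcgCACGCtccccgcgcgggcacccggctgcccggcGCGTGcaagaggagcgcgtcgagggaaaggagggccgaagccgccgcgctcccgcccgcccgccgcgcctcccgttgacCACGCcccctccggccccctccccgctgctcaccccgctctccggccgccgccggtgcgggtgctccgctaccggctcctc
CD36: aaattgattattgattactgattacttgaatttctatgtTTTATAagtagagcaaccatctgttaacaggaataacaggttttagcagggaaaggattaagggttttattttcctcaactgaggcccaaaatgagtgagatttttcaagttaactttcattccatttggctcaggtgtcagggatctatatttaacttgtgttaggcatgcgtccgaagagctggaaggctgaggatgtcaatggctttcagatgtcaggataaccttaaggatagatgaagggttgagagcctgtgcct

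The ANGPTL4 window holds TATAAA beginning 29 bases before the start and 1 ACGTG. The VLDLR window holds no TATAAA and 5 matches to GCGTG, a pair of which share 1 base. The CD36 window shown holds a TATAAA match 211 bases before the start, on the minus strand. Among all 35116 windows, TATAAA occurs in 11.5%, ACGTG in 21.4% and GCGTG in 36.5%. The letters of a PPAR response element were taken as a pair of AGGTCA hexamers in the same direction with 1 base between them. They occur in none of the 11 windows of the 5 genes and in 0.0228% of all windows. So rare a match would be missing from nearly any 11 windows, and nothing is read from its absence. A lone AGGTCA hexamer, which occurs in 13.8% of all windows, is also absent from these 11. The G and C content is 66.3% in the ANGPTL4 window, 79.0% in the VLDLR window and 38.7% in the CD36 window, against a median of 58.7% over all windows. These matches describe letters within the windows only, and the data do not show which CD36 start was used.

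RNA abundance was read as the deposited normalised count, a read count divided by 1 scaling factor per library. Recovered read totals lay between 67785956 and 78005035 per library. The melanocyte lineage transcription factor genes SOX10 (34072 to 41363) and MITF (2414 to 3533) were well expressed in every library. TYR, which encodes the pigment enzyme tyrosinase, was near the detection limit (1.93 to 3.93). Other markers of this list were low as well: TYRP1, DCT, MLANA, MIA and PMEL lay between 7.75 and 98.2. S100A1 was at 127 to 167, and PAX3, EDNRB and S100B lay between 1204 and 4234. Of 12 melanoma and melanocyte markers, 11 were tested, and 2 were called higher (PMEL and EDNRB) and 2 lower (MITF and S100B) under octanoate. ADIPOQ, a defining adipocyte gene, was at 0 to 1.96, and the leukocyte gene PTPRC at 1.93 to 10.8. Other genes of the same lists were higher, such as LIPE (229 to 356) and MSR1 (565 to 903). The summed level of the 7 adipocyte markers ran from 377 to 631 and that of the 8 macrophage and monocyte markers from 625 to 981. It ran from 734 to 970 for the 7 endothelial, from 2078 to 2415 for the 6 fibroblast and from 4793 to 6715 for the 6 keratinocyte markers. The keratinocyte sum was mostly KRT10 (4566 to 6173), with KRT5, KRT1, TP63 and DSG3 at 0 to 12.8. In the fibroblast list PDGFRB (1138 to 1309) and LUM (507 to 547) were highest, and in the endothelial list KDR (373 to 449). Of the tested adipocyte genes 3 of 4 (CFD, CIDEC and LIPE) were called higher, and of the macrophage genes 1 of 3 (MSR1). Of the endothelial genes 2 of 7 (PECAM1 and VWF) were called higher, and none in these 3 lists was called lower. In the other lists, 2 of 6 tested fibroblast genes (COL1A1 and COL1A2) and 1 of 2 tested keratinocyte genes (KRT14) were called lower and none higher. Over all tested genes 16.2% were called higher and 13.7% lower. LPL and CD36 are themselves expressed by such cells, and the part of these markers in their values was not tested. In bulk RNA, fewer expressing cells and less RNA per cell cannot be told apart.

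Of the 7 members, 5 had a mean normalised count of at least 10 and entered the fit across 20250 genes. Under octanoate 4 of these 5 were called higher, namely ANGPTL4, CD36, VLDLR and LPL, and LMF1 was not called. In the same fit (limma, Benjamini-Hochberg adjusted p under 0.05) 29.9% of all tested genes were called, 16.2% higher and 13.7% lower. Both octanoate libraries lay above both vehicle libraries for all 5 tested members, as they did for 32.6% of all tested genes. Because this contrast was known when the members were chosen, nothing is read from these counts. LIPG and GPIHBP1 did not reach the minimum mean.

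**Figure D1:**
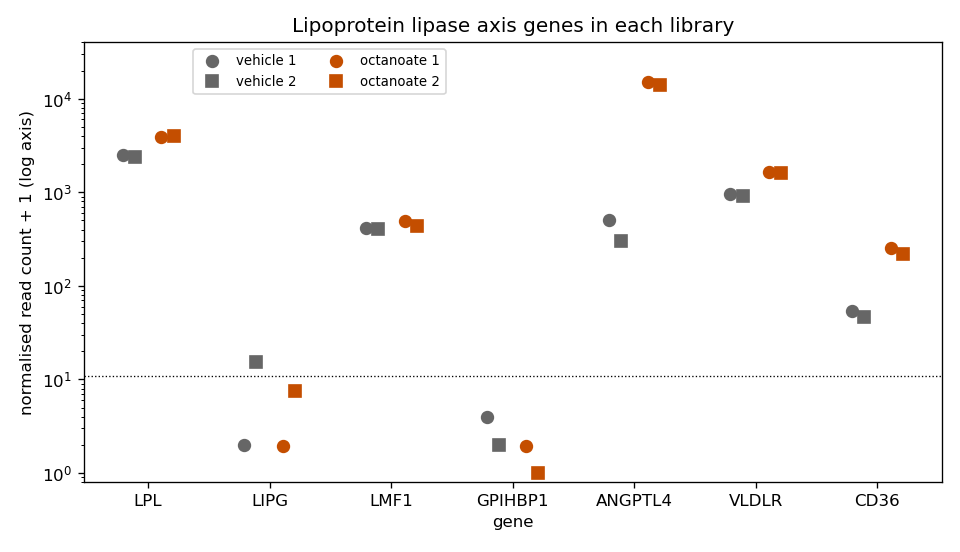
Normalised read count plus 1 (log axis) of the 7 members in each of the 4 libraries, with grey points for vehicle, orange points for octanoate, circles for replicate 1 and squares for replicate 2. The dotted line marks the minimum mean of 10 used for testing (11 on this axis). ANGPTL4 shows the widest separation, from 301 and 506 in vehicle to 13952 and 15245 in octanoate, while LIPG and GPIHBP1 sit at a few reads.

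LPL, the lipase itself, had normalised counts of 2509 and 2360 in vehicle 1 and 2 and of 3890 and 3966 in octanoate 1 and 2. The groups were well apart, and the lowest octanoate value was 1.55 times the highest vehicle value. Means were 2434 ± 105 and 3928 ± 54.3 (SD, n = 2 each), a ratio of 1.61 and a log2 difference of 0.69 (SE 0.06). This log2 difference was exceeded by 6.57% of all tested genes.

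LIPG, which encodes endothelial lipase, a relative of LPL that acts mainly on phospholipids, was barely detected. Its reads numbered 1 and 15 in vehicle and 1 and 6 in octanoate. The second library of each group held nearly all of them, so the groups overlapped and no difference between them was detectable at this depth. The exact 95% Poisson intervals of the normalised counts, which cover counting error only, were 0.0249 to 5.47 for vehicle 1 and 8.13 to 24.0 for vehicle 2. Within the vehicle group, then, the replicates differed by more than counting error.

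LMF1, the maturation factor, was expressed at 418 and 403 in vehicle and at 493 and 433 in octanoate. The groups did not overlap, but the lowest octanoate value was only 1.04 times the highest vehicle value, less than the 1.14 between the octanoate replicates. Means were 411 ± 10.7 and 463 ± 42.0 (SD, n = 2 each), and the log2 difference was 0.17 (SE 0.10). Without octanoate 1 the log2 difference was 0.08, and without octanoate 2 it was 0.26.

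GPIHBP1, the capillary anchor, gave 3 reads and 1 read in vehicle and 1 read and 0 reads in octanoate. These are at or under 3 reads, the floor used here, so no fold change is given. In octanoate 2 this floor is a normalised count of 3.25, and the 95% Poisson interval of its 0 reads reached 4.0. No difference between the groups was detectable at this depth.

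ANGPTL4, the secreted inhibitor, had normalised counts of 506 and 301 in vehicle and 15245 and 13952 in octanoate. The vehicle values rested on 516 and 311 reads and the octanoate values on 15838 and 12874. Even the lowest octanoate library held 27.5 times the highest vehicle value. The ratio of the means was 36.1, with a log2 difference of 5.22 (SE 0.13). This was the second largest positive difference of all tested genes, behind FABP4, which was low in vehicle (10.8 and 5.81). The vehicle replicates differed 1.68-fold, and their counting intervals, 464 to 552 and 269 to 337, did not overlap. The octanoate replicates differed 1.09-fold. The SE of 0.13 comes from a fit that shares variance across genes, and it is small against the vehicle gap of 0.75 on the log2 scale. It was 0.29 without the intensity trend, 0.35 with DESeq2 on recovered reads and 0.06 with a replicate block. Leaving out vehicle 1 gave a log2 difference of 5.59 and leaving out vehicle 2 gave 4.85.

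VLDLR, the very-low-density lipoprotein receptor, had normalised counts of 955 and 904 in vehicle and 1631 and 1588 in octanoate. Replicates were close, 1.06-fold apart in vehicle and 1.03-fold apart in octanoate, and the groups were separated by a factor of 1.66 between their nearest values. The log2 difference of 0.79 (SE 0.07) was exceeded by 5.01% of all tested genes. It is close in size to the difference of LPL.

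CD36, a membrane receptor that aids fatty acid uptake, went from a low level of 53.0 and 45.5 in vehicle to 252 and 218 in octanoate. The vehicle values rested on 54 and 47 reads and the octanoate values on 262 and 201. Means were 49.3 ± 5.28 and 235 ± 24.3 (SD, n = 2 each), a ratio of 4.77. The log2 difference was 2.23 (SE 0.17), which ranked 65 among the tested genes from the largest positive difference down. The counting intervals were at most 69.2 in vehicle and at least 189 in octanoate, so the groups were apart by more than counting error as well.

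In the authors' deposited table the log2 fold change was 5.18 for ANGPTL4 (SE 0.37), 2.26 for CD36 (SE 0.27), 0.79 for VLDLR (SE 0.10), 0.69 for LPL (SE 0.07) and 0.17 for LMF1 (SE 0.15). LIPG was listed in the authors' deposited table at -1.07 with an SE of 1.43. That SE exceeds the fold change, and GPIHBP1 has no value there. The standard errors in the authors' deposited table were larger than those above for every tested member, most of all for ANGPTL4. The fold changes of both fits, made from the same libraries, lay close together.

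To compare levels between genes, normalised counts were divided by the summed length of each gene's exons in GENCODE 29, which gives counts per kilobase. In vehicle 1 and 2 the order was LPL (572 and 538), ANGPTL4 (204 and 121), VLDLR (102 and 96.8), LMF1 (50.8 and 49.0) and CD36 (4.87 and 4.19), all per kilobase. LIPG and GPIHBP1 were lowest, at 0.0749 to 1.29 per kilobase, and were not separable from each other. In octanoate 1 and 2 ANGPTL4 led at 6142 and 5621 per kilobase, followed by LPL (887 and 905), VLDLR (175 and 170), LMF1 (59.9 and 52.7) and CD36 (23.2 and 20.0). Neighbours in this order did not overlap between libraries of the same group, apart from LIPG and GPIHBP1. The summed length counts every annotated exon, including rarely used ones, so it understates genes with many alternative exons such as CD36, which has 26 exon blocks spanning 10.9 kb.

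Relative to LPL per kilobase, ANGPTL4 stood at 0.356 and 0.225 in the vehicle libraries and at 6.92 and 6.21 in the octanoate libraries. On this scale the inhibitor transcript was below the lipase transcript in both vehicle libraries and above it in both octanoate libraries. The ratio of VLDLR to LPL was 0.179 and 0.180 in vehicle and 0.197 and 0.188 in octanoate. These 4 ratios span 0.179 to 0.197, and the groups did not overlap. LMF1 relative to LPL went from 0.0887 and 0.0909 to 0.0675 and 0.0582, without overlap between the groups, though the counts of LMF1 itself were not lower in octanoate. CD36 relative to LPL went from 0.00851 and 0.00777 to 0.0261 and 0.0221. Among 15141 tested genes with a length, ANGPTL4 lay above 43.6% and 35.8% of genes in the vehicle libraries and above 97.0% and 96.8% in the octanoate libraries. LPL lay above 65.1% and 64.4% in vehicle and above 75.2% and 76.1% in octanoate. CD36 stayed among the lower genes, above 6.29% and 4.66% in vehicle and above 17.3% and 15.9% in octanoate.

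**Figure D2:**
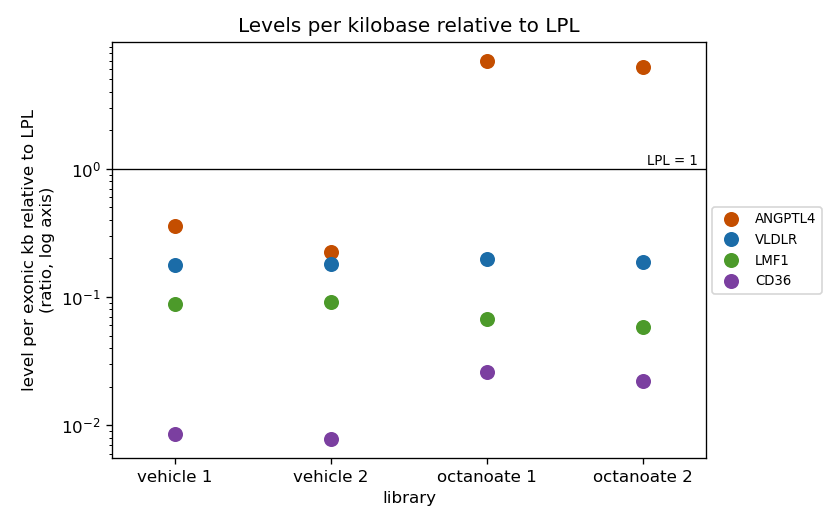
Level per exonic kilobase of ANGPTL4, VLDLR, LMF1 and CD36 relative to LPL (ratio, log axis) in each of the 4 libraries, with the line at 1 standing for LPL. ANGPTL4 lies below the line in vehicle (0.356 and 0.225) and above it in octanoate (6.92 and 6.21), while VLDLR stays between 0.179 and 0.197.

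The rest of the pathway was read from 10 lists of related genes, 162 genes in all, of which 132 were tested. Of these, 46 were called higher and 28 lower (56.1% called, against 29.9% of all tested genes). Like the members, the lists were chosen with earlier results of these data known. Nothing is therefore read from this share, and the adjusted p-values of list genes describe these data only. Genes in the following sentences beyond the naming rule were named after their values were seen. All calls are from limma with Benjamini-Hochberg adjustment over the 20250 genes. With no intensity trend in the limma fit, 24 of the list genes were called in place of 74, and without a filter on low values 45 were. Without the trend, calls went from 12 to 1 for hypoxia targets and from 8 to 1 for the receptor family of VLDLR. They went from 6 to 1 for fatty acid uptake, from 17 to 10 for PPAR targets and from 7 to 4 for glucocorticoid targets. The calls lost without the trend include those of ANGPTL1, ANGPTL2, APOC1, APOE, CAV1, ADM, ALDOC and RXRG, and those lost without the filter include ANGPTL1 and ALDOC.

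The other tested angiopoietin-like genes had log2 differences from -0.78 to 0.56. Of 7 such genes, 4 were tested, with a median log2 difference of 0.18, against 0.01 over all tested genes. ANGPTL2 averaged 1641 ± 123 with vehicle and 2425 ± 116 with octanoate (SD, n = 2 each) and rose by 0.56 on the log2 scale (adjusted p 1.01e-06, limma). ANGPTL1 averaged 115 ± 18.9 with vehicle and 66.8 ± 12.8 with octanoate (SD, n = 2 each) and fell by 0.78 (adjusted p 0.00342, limma); without vehicle 2 this call was lost (adjusted p 0.0626), which left 1 called gene in the list. ANGPTL6 (0.10, limma adjusted p 0.852) and ANGPTL8 (0.26, limma adjusted p 0.632) were not called. ANGPTL6 shares exonic sequence with C19orf66 on the opposite strand, which makes its count uncertain.

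Of the 8 other genes of the pancreatic lipase family, 2 were tested and neither was called: LIPC, hepatic lipase, went from 74.6 ± 5.51 to 88.9 ± 6.25 and LIPH from 32.6 ± 16.9 to 37.1 ± 8.87 (SD, n = 2 each). The summed level of all 8 ran from 115 to 158, against at least 2360 for LPL. APOC2, the activating cofactor of lipoprotein lipase, was at 0.963 to 2.91, and APOA5, another activator, at 0 to 7.70.

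Among 17 apolipoproteins and cofactors, 8 were tested, 3 rose and 4 fell, with a median log2 difference of -0.19. APOE, a ligand of VLDLR, rose from 303 ± 47.6 to 603 ± 74.9, and its neighbour APOC1, which restrains lipoprotein lipase, rose from 141 ± 33.0 to 265 ± 15.3 (SD, n = 2 each). Their log2 differences were 0.99 and 0.93 (limma adjusted p 2.96e-07 and 3.23e-05). APOL6 rose as well, and APOD, APOL1, APOL3 and APOM fell. Without vehicle 1, 3 genes of the list were called in place of 7. Both APOE and APOC1 overlap exons of AC011481.3 on the same strand in GENCODE 29.

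Of 18 genes for maturation, anchoring and cleavage of lipases, all tested, 6 rose and 4 fell, with a median of 0.11. The heparan sulphate core proteins, which tether lipases to the cell surface, were split: SDC4, GPC1, GPC4, GPC6 and HSPG2 rose and SDC2 and SDC3 fell. On the log2 scale SDC2 fell by 0.68 and SORT1, a sorting receptor that binds lipoprotein lipase, by 0.67 (adjusted p 1.51e-08 and 1.25e-08, limma). FURIN, a protease that cleaves ANGPTL4 and lipases, rose and the chaperone gene CALR fell. LMF2, the relative of LMF1, was not called, with a log2 difference of -0.05.

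Of the receptor family of VLDLR and its regulators, 16 of 18 genes were tested, 6 rose and 2 fell, with a median of -0.02. The log2 difference of VLDLR, 0.79, was above that of all 16, but VLDLR was chosen with this contrast known. LRP1B, a large receptor of the family, had counts of 238 and 253 in vehicle and 95.3 and 101 in octanoate and fell by 1.31 on the log2 scale (adjusted p 1.18e-07, limma), and MYLIP, a ligase that degrades these receptors, fell too. Without octanoate 1, 5 genes of the list were called in place of 8. LRP1B shares 351 bases with AC078882.1.

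Beside CD36, 15 of 20 fatty acid uptake and scavenger receptor genes were tested, 3 rose and 3 fell, with a median of -0.01. MSR1, a macrophage scavenger receptor, rose by 0.58 and CAV1, which encodes a caveolar protein linked to CD36 traffic, fell by 0.32 (limma adjusted p 9.57e-06 and 0.000105). SLC27A1 and SLC27A4, fatty acid transport proteins, rose, and SCARB1, a relative of CD36, and OLR1 fell. None of the 15 had a log2 difference above that of CD36, which was chosen with this contrast known. Without octanoate 1, 3 genes of the list were called in place of 6. MSR1 shares at most 111 bases with any of 29 other genes.

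Since members of the axis are textbook targets of several regulators, lists for 3 of these were read beside it. Of 31 PPAR targets outside the axis, 27 were tested, 16 rose and 1, TXNIP, fell, with a median of 0.28. ANGPTL4 and CD36 were above that median, as were LPL and VLDLR, all chosen with this contrast known. FABP4, a lipid carrier, rose by 6.68 on the log2 scale, and CREB3L3, a transcription factor gene, rose by 3.36, from 98.0 ± 1.59 to 1018 ± 17.1 (SD, n = 2 each, limma adjusted p 3.84e-17). Of 20 hypoxia targets, all tested, 5 rose (CA12, VEGFA, PDK1, P4HA2 and DDIT4) and 7 fell, with a median of -0.07. ADM fell by 0.57 and ALDOC by 0.49 (limma adjusted p 2.17e-05 and 3.35e-05), and ALDOC shares exons with AC005726.4 on the opposite strand. Of 13 glucocorticoid targets, 12 were tested, with 4 higher (ERRFI1, DUSP1, GLUL and PER1), 3 lower (KLF9, SGK1 and CEBPD) and a median of 0.10. KLF9 fell by 0.91 and ERRFI1 rose by 0.85 (limma adjusted p 1.66e-11 and 3.92e-11), and ERRFI1 shares 155 bases with AL034417.4 on the opposite strand. The part of any of these regulators in the ANGPTL4 difference was not tested.

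Of 10 genes for lipid-sensing receptors and their coregulators, all tested, 2 rose (PPARGC1B and NR1H3) and 3 fell (RXRG, RXRA and PPARG), with a median of -0.04. RXRG, a partner receptor of the PPARs, fell from 1230 ± 171 to 598 ± 83.3 and the coactivator gene PPARGC1B rose from 884 ± 22.2 to 1226 ± 27.0 (SD, n = 2 each, limma adjusted p 1.34e-08 and 3.36e-05). PPARG, at 5920 to 6793, fell by 0.16 (adjusted p 0.0397, limma). Without vehicle 2, 3 genes of the list were called in place of 5.

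**Figure D3:**
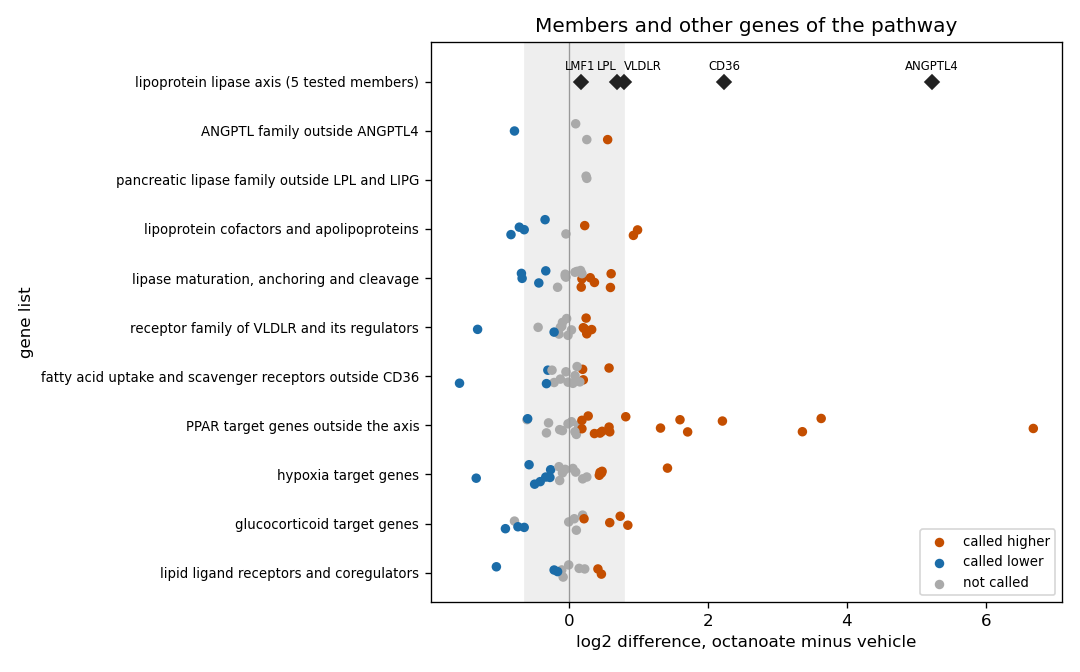
Log2 difference between octanoate and vehicle (horizontal axis) of the 5 tested members (black diamonds) and of the tested genes of 10 related lists (points), coloured by limma call. The grey band runs from the 5th to the 95th percentile of all tested genes (-0.63 to 0.79) and the grey line is their median (0.01). ANGPTL4 and CD36 lie right of the band, and among the list genes FABP4 alone lies beyond ANGPTL4.

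The members lie on 6 chromosomes, and only LPL and GPIHBP1 share one. In GENCODE 29 (GRCh38), ANGPTL4 lies at chr19:8363289-8374373, CD36 at chr7:80369575-80679277, VLDLR at chr9:2621834-2660053, LMF1 at chr16:853634-981318 and LIPG at chr18:49560699-49599182. LPL lies at chr8:19901717-19967259 and GPIHBP1 at chr8:143213193-143217170. All 7 are protein coding. The values of VLDLR and LMF1 carry some uncertainty from overlapping genes: VLDLR shares 738 exonic bases (7.90% of its exonic length) with VLDLR-AS1 on the opposite strand, and LMF1 shares 220 with LMF1-AS1 on the opposite strand and 174 with AC009041.2 on the same strand. ANGPTL4 shares 1 base with RAB11B-AS1. Whether the counting used strand is not given in the sources used here. No shared exon or sequence was found for LPL, LIPG, GPIHBP1 or CD36.

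For each tested member the 3 nearest tested protein-coding genes on either side were read as well. ANGPTL4 stood far above its 6 neighbours, whose log2 differences ran from -0.35 to 0.93. The highest of them, KANK3, rose from low counts of 28.5 and 29.1 to 63.5 and 48.8 (limma adjusted p 0.00894), and HNRNPM fell by 0.35 (limma adjusted p 6.11e-05). The neighbours of CD36 ran from -0.11 to 0.44, those of VLDLR from -0.48 to 0.21 and those of LPL from -0.92 to -0.05. Each of these members exceeded all 6 of its neighbours, but the members were chosen with this contrast known, so nothing is read from that. Some neighbours lie far off, such as PHTF2 at 2412 kb from CD36 and KANK1 at 1876 kb from VLDLR. For LMF1 the neighbours ran from -0.20 to 0.65, and SOX8, the nearest, rose (limma adjusted p 0.000406).

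**Figure D4:**
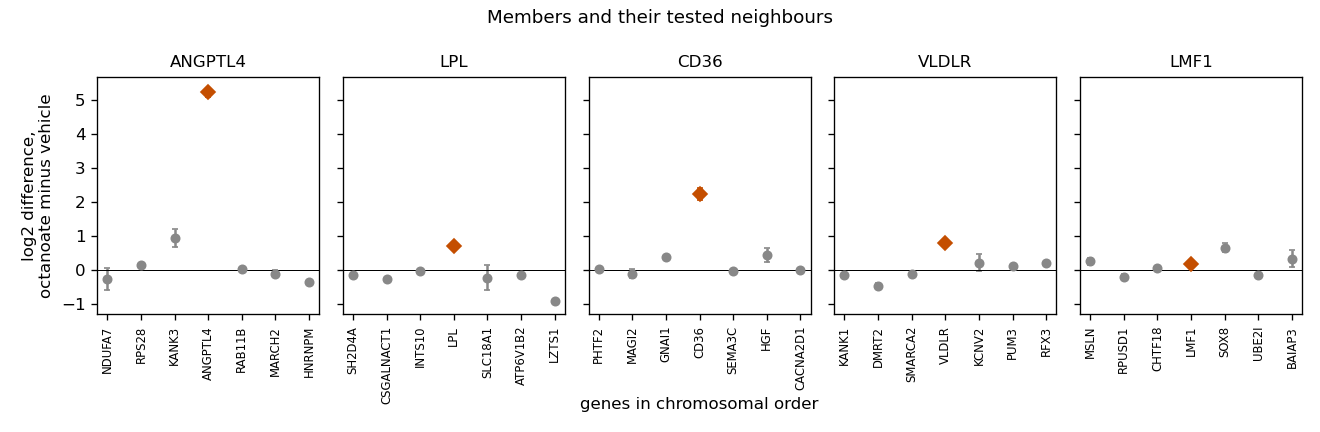
Log2 difference between octanoate and vehicle of the 5 tested members (orange diamonds) and of 3 tested protein-coding genes on either side (grey circles) in chromosomal order, with bars for the standard error. ANGPTL4 at 5.22 and CD36 at 2.23 stand above neighbours that reach 0.93 and 0.44.

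The genes whose pattern over the 4 libraries was most like that of a member were found by the root mean square difference of centred log2 values over the 13482 genes whose mean reached 100. For ANGPTL4 these were AREG (0.38), FABP4 (0.73) and IL1B (0.87); the smallest of these distances is above all of those for LPL and CD36. For LPL the nearest were TSC22D1 (0.01), GFPT2 (0.01) and MMD (0.02), and for CD36 they were GDF15 (0.03), LYPD3 (0.05) and HES7 (0.06). Likeness over 4 libraries in 2 groups describes these libraries only.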

How the data were processed

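RNA from 4 A375 libraries (2 vehicle, 2 octanoate) was sequenced. Per the submitters' processing notes, the tools were bcl2fastq 2.17, Trim Galore, STAR 2.4, Picard, HTSeq 0.9.1 and DESeq2, with build hg38; their roles and the annotation are not given in the sources used here. Per its file name, the deposited table of values gives for every gene a signal, the DESeq2-normalised count. All values (100%) were whole multiples of 1 step per library (tolerance 0.001 reads), so reads were recovered. A second deposited table, of the authors' comparison, lists the mean signal, the score of the test, p-values before and after adjustment, and log2 fold changes with standard errors; only the last are printed.

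The model, in R 4.3.3 with limma 3.58.1, took log2(normalised count + 1) (intensity trend, treatment as the only term) over 20250 genes with a mean of at least 10, two-sided, with Benjamini-Hochberg adjustment. Calls have an adjusted p under 0.05. The log2(value + 1) scale understates changes of low genes. Totals and factors per library ranged from 67785956 to 78005035 reads and from 0.923 to 1.04. With 2 against 2 libraries the smallest two-sided p of an exact permutation test is 0.333. The fits were tested on simulated data.

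The members and lists were chosen with earlier results of these data known. Named genes are the 7 members, the tested angiopoietin-like and pancreatic lipase genes, the 2 called genes per list with the largest differences (mean at least 100, no overlap) and the nearest patterns. ANGPTL8 was matched through an older symbol in RefSeq. Some genes that the lists count are not reported here by name. Neighbours, levels per kilobase and promoter motifs were added after the data were seen. Shared sequence was searched with blastn 2.17.0 (95% identity over at least 100 bases) in GENCODE 29 transcripts. The alternatives tried were no filter or a filter at 50, a pseudocount of 0.5 or 5, TMM scaling, equal totals, no trend, a replicate block, leaving out each library, and edgeR 4.0.16 and DESeq2 1.42.0 on recovered reads.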

Additional observations from a re-analysis of the deposited data

How the results depend on the processing

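Across the 14 alternatives the log2 difference ran from 4.85 to 5.59 for ANGPTL4, 2.12 to 2.34 for CD36 and 0.75 to 0.83 for VLDLR. It ran from 0.65 to 0.73 for LPL and 0.08 to 0.26 for LMF1. The ends of each range came from leaving out 1 library, so its width follows from the gap between replicates. LIPG and GPIHBP1 were too low to be tested. The counts of called genes moved most with the filter and the intensity trend. Without a filter 2595 of all genes and 45 of the list genes were called, and without an intensity trend 1625 and 24, against 6048 and 74. In the no-filter fit ANGPTL1 (adjusted p 0.0975) and ALDOC (0.0568) were not called. Without the trend ANGPTL1 (0.106), ANGPTL2 (0.0532), APOC1 (0.0780), APOE (0.0557), CAV1 (0.0665), ADM (0.0536), ALDOC (0.105) and RXRG (0.0519), among others, were not called, and ANGPTL1 was also lost without vehicle 2 (0.0626); the cause was not tested. No called value of a member, or of a list gene picked by the naming rule, changed sign. Among the genes not called, LIPH changed from 0.26 to -0.28 without vehicle 1, and ANGPTL6 from 0.10 to -0.22 without vehicle 2 and to -0.17 without octanoate 1. Leaving out 1 library gave 4382 to 4878 genes and 59 to 66 list genes called. DESeq2 on recovered reads called 4924 genes and 64 list genes, edgeR 6480 and 76. What the replicate numbers stand for is not labelled, so whether same-numbered libraries are paired is not known. Vehicle 1 and octanoate 1 deviated from their group means with a correlation of 0.13 over genes. With the replicate block 8376 genes and 86 list genes were called.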

Other observations

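The vehicle libraries differed in ANGPTL4 (506 and 301) more than in the other 4 tested members. Its log2 gap of 0.75 was matched or exceeded by 7 of 2630 genes (0.266%) with a vehicle mean within 2-fold of its own. The gap was 0.21 for CD36, 0.09 for LPL, 0.08 for VLDLR and 0.05 for LMF1, all with vehicle 1 higher. Of the members too low to test, LIPG was higher in vehicle 2 (0.982 and 14.5) and GPIHBP1 in vehicle 1 (2.94 and 0.969). Vehicle 1 was also higher for 19 of 20 hypoxia targets (median log2 gap 0.11), 21 of 27 PPAR targets (0.06) and 10 of 12 glucocorticoid targets (0.05), against 63.2% of all tested genes (0.04). The same held for 15 of 18 lipase maturation genes (0.10), 12 of 15 fatty acid uptake genes (0.08) and 12 of 16 genes of the receptor family of VLDLR (0.06). For the remaining lists it was 3 of 4 angiopoietin-like, 1 of 2 pancreatic lipase, 5 of 8 apolipoprotein and 6 of 10 lipid-sensing receptor genes. In octanoate, where octanoate 1 was higher for 18 of the 20 hypoxia targets and for 56.0% of all tested genes, the ANGPTL4 gap was 0.13. CA9, a hypoxia-induced carbonic anhydrase chosen here after its values were seen, was at 152 and 57.2 in vehicle and at 42.4 and 31.4 in octanoate. The part of this difference between vehicle libraries in the ANGPTL4 values was not tested.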
